A study of Homo sapiens with 18 samples.

Results

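Steroid hormone receptors and glucocorticoid-responsive genes were examined in OVCAR3-KRAB cells, a human ovarian cancer cell line carrying a dead Cas9 fused to the KRAB repressor (dCas9-KRAB). The 7 genes were ESR1 and ESR2 (estrogen receptors alpha and beta), PGR (progesterone receptor), NR3C1 (glucocorticoid receptor), NR3C2 (mineralocorticoid receptor), TSC22D3 (GILZ, an anti-inflammatory leucine zipper protein) and FKBP5 (FKBP51, a cochaperone that lowers the affinity of the glucocorticoid receptor for hormone). They were picked by name, with results of these libraries known, and are 7 of the 28277 genes in the count table. Steroid receptors are transcription factors that a hormone activates. Ligand-free glucocorticoid receptor is held by HSP90 and its cochaperones in the cytoplasm, and hormone-bound receptor enters the nucleus and binds DNA. TSC22D3 and FKBP5 are among its best known targets, FKBP5 closing a negative feedback loop on the receptor.

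Total RNA was sequenced from 6 groups of 3 libraries. Each group carried dCas9-KRAB and 1 single guide RNA, either a control guide (sgControl in the labels, written sgCtl here) or one of the guides sgXIST7 and sgXIST9, which target the promoter of XIST, the long noncoding RNA that silences 1 X chromosome in female cells. Each guide was sequenced in normoxia and after 24 h in a chamber with 1% oxygen (hypoxia). The control guide was directed at Gal4, which human cells lack, and all groups grew in DMEM with fetal bovine serum, with no added hormone named in the sources. The cells were clonal, so guide and clone cannot be told apart, and the study describes the replicates of the RNA sequencing as biological, while the labels do not say whether they came from separate cultures. The study asked how loss of XIST changes ovarian cancer cells and their response to low oxygen.

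The libraries held 11794375 to 24906936 counts. XIST, the targeted gene, had 4213 to 11209 counts in sgCtl, 1 to 5 in sgXIST7 and 650 to 1009 in sgXIST9 in normoxia. In hypoxia XIST had 1589 to 5014 counts in sgCtl, 0 to 3 in sgXIST7 and 357 to 510 in sgXIST9. The exons of XIST share 38.9% of their bases with those of the antisense gene TSIX, and whether counting used the strand is not given. Among markers of ovarian carcinoma cells, EPCAM and KRT18 were high (156 to 251 and 129 to 251 CPM, counts scaled to library size). KRT8 stood at 4.07 to 43.3 CPM, and PAX8 was low (0.828 to 5.94 CPM). MUC16 (at most 4 counts) and CDH1 (at most 2 counts) were near 0 in every library, as were WT1 and MSLN (at most 0.695 and 0.692 CPM). The name OVCAR3-KRAB is that of the labels, and these low MUC16, CDH1, WT1 and MSLN values do not bear it out. The identity of the line was not tested. The summed level of 6 blood, vessel and fibroblast markers was 0.175 to 3.19 CPM, highest in sgCtl hypoxia. The 3 hypoxia libraries numbered 3 deviated from their group means together (r from 0.380 to 0.566), so many of the values in hypoxia are given with and without them.

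Promoter sequence is shown for the glucocorticoid receptor gene NR3C1 and its targets TSC22D3 and FKBP5, because letters bound by hypoxia-inducible factors (cores ACGTG and GCGTG) and by the glucocorticoid receptor could be searched there. The sequences are RefSeq windows of up to 250 bases before an annotated start (build GRCh38.p14, the assembly also called hg38), cut to the stretch outside annotated exons. All 4 lie on the minus strand and read 5′ to 3′. Capitals mark ACGTG or GCGTG on either strand.
NR3C1 (chr5:143403687-143403936): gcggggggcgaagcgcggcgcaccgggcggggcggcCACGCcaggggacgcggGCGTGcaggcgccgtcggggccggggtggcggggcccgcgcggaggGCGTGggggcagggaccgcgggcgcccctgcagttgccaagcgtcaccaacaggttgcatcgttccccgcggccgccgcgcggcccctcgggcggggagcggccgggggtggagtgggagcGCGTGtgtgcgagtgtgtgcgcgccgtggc
TSC22D3, outer start (chrX:107775989-107776238): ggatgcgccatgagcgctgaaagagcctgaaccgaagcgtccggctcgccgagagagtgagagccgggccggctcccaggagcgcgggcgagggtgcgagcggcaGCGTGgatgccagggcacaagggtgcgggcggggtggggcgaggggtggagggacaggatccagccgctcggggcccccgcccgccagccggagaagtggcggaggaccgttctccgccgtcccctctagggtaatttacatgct
TSC22D3, inner start (chrX:107717063-107717312): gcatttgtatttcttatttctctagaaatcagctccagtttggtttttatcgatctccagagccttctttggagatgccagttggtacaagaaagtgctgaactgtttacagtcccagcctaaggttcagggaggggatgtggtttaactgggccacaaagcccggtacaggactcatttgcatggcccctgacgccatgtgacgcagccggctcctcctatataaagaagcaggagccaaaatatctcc
FKBP5 (chr6:35688943-35689165): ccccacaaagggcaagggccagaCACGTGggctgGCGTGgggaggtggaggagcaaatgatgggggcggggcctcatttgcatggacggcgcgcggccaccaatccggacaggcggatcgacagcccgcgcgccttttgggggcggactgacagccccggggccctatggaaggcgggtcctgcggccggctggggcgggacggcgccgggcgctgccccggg
The NR3C1 window held 4 matches to GCGTG, the most among the 7 RefSeq windows of that gene, of which 3 held neither core. The outer TSC22D3 window held 1. No capitals stand in the inner TSC22D3 window, from which the short GILZ transcript starts. The FKBP5 window held CACGTG, which matches ACGTG on both strands (2 overlapping matches), and 1 GCGTG, while the other FKBP5 window held neither core. Over all 35116 RefSeq windows of the same 250 bases, ACGTG was found in 18.5%, GCGTG in 32.2% and at least 1 of them in 43.2%, against 15 of the 31 windows of the 7 members. A perfect glucocorticoid response element, the half-site AGAACA followed by any 3 bases and its reverse complement, was in 1 of the 35116 windows and in none of the members', and the half-site alone was in 12.4% of all windows and in 1 of the members' 31, an ESR1 window. Overlapping windows of 1 gene share bases, and a match is a match of letters only.

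Levels between genes were compared per length, as CPM divided by exon length in kilobases (RPKM). In sgCtl normoxia the order was FKBP5 (11.1 ± 1.08 RPKM, SD, n = 3), TSC22D3 (0.972 ± 0.109), ESR2 (0.512 ± 0.012), NR3C1 (0.062 ± 0.054) and NR3C2 (0.029 ± 0.008), with no ESR1 or PGR count; NR3C1 and NR3C2 did not differ beyond their spread. In sgXIST9 normoxia NR3C1 stood first at 38.7 ± 2.05 RPKM, before FKBP5 at 12.9 ± 0.308, and in sgXIST7 normoxia NR3C1 (13.4 ± 1.63) and FKBP5 (11.97 ± 0.892) lay within their spreads. In hypoxia TSC22D3 led in sgCtl with 30.4 ± 3.47 RPKM, and NR3C1 led in sgXIST9 with 42.3 ± 2.45. In sgXIST7 hypoxia TSC22D3 (30.3 ± 10.8) and NR3C1 (26.5 ± 3.45) overlapped.

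**Figure D1:**
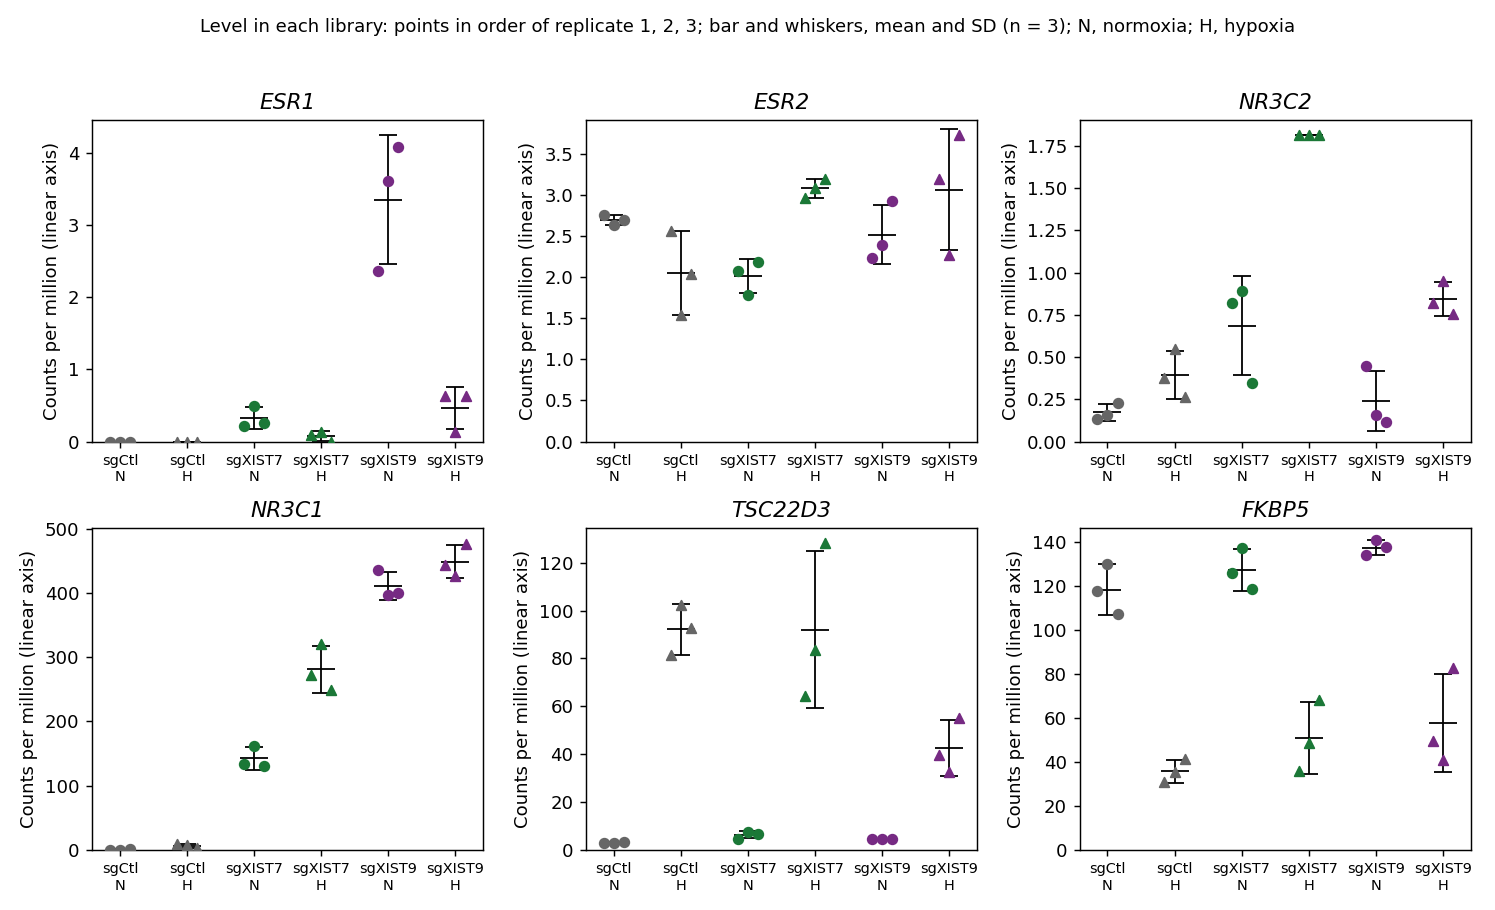
Level of 6 members in each library, in CPM on linear axes that start at 0 (each panel has its own range), by guide and oxygen. Points are libraries in order of replicate number, and the bar with whiskers is the mean with its SD (n = 3). NR3C1 is near 0 in the 6 sgCtl libraries and above 131 in every sgXIST library, TSC22D3 is high and FKBP5 low in the hypoxia libraries of all guides.

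NR3C1, the glucocorticoid receptor gene (chromosome 5, 143277931 to 143435512, minus strand), showed the largest fitted differences among the members between the sgXIST clones and sgCtl. For sgXIST9, ESR1 came near it. With 1 library left out, the fitted log2 fold change of ESR1 was 8.78 to 9.12 in normoxia (NR3C1 8.87 to 10.28). In hypoxia it was 5.73 to 6.54 (NR3C1 5.80 to 6.38). ESR1 had no count in sgCtl, so the size of its fold is not known. The sgCtl normoxia libraries held 5, 4 and 23 counts, which is 0.335, 0.309 and 1.32 CPM. The sgXIST7 normoxia libraries held 3089, 2922 and 3010 counts (142 ± 17.3 CPM), and those of sgXIST9 held 9776, 7466 and 6866 (411 ± 21.8 CPM). All 6 sgXIST libraries lay far above the 3 control libraries, and those of sgXIST9 lay above those of sgXIST7. The log2 fold change against sgCtl was 7.66 (SE 0.41) for sgXIST7 and 9.19 (SE 0.42) for sgXIST9, both measured against the same control libraries. Leaving out 1 library moved these values between 7.34 and 8.75 and between 8.87 and 10.28, the high ends without sgCtl normoxia replicate 3. In bulk RNA, a larger share of cells with the transcript and more of it per cell cannot be told apart.

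Hypoxia was accompanied by more NR3C1 in sgCtl. Its 3 hypoxia libraries held 133, 157 and 27 counts (8.31, 7.79 and 2.39 CPM), each above the normoxia libraries, and replicate 3 was the lowest of them. The log2 fold change was 3.17 (SE 0.43) and was 3.51 without the hypoxia libraries numbered 3 and 4.26 without sgCtl normoxia replicate 3. In sgXIST7 the hypoxia libraries held 5717, 7093 and 2890 counts (281 ± 36.6 CPM), which do not overlap with normoxia, with a log2 fold change of 0.98 (SE 0.27) that missed the fold threshold of 1. It passed with DESeq2 (1.01) and with another scaling (1.01 and 1.00), and reached 1.08 without the libraries numbered 3. In sgXIST9 they held 9737, 9391 and 7564 counts (449 ± 26.0 CPM), overlapping normoxia, with a log2 fold change of 0.13 (95% interval -0.44 to 0.69). Against sgCtl in hypoxia, the clones stood at 5.47 (SE 0.33) for sgXIST7 and 6.14 (SE 0.34) for sgXIST9 on the log2 scale, or 5.21 and 5.75 without the libraries numbered 3. The response to hypoxia was lower than in sgCtl by a log2 difference of -2.19 (SE 0.52) in sgXIST7, which was not called, and -3.05 (SE 0.52) in sgXIST9, which was called. Without the hypoxia libraries numbered 3 both were called, at -2.44 and -3.43. The difference in sgXIST7 was also called with DESeq2 (-2.21) and without replicate 3 of sgCtl normoxia (-3.28) or hypoxia (-2.52). The call in sgXIST9 was lost with no filter beyond 1 count (-3.04), in a fit of the 4 groups alone (-3.05) and without sgCtl normoxia replicates 1 or 2, sgCtl hypoxia replicates 1 or 2, or replicate 1 of either sgXIST9 group (-3.04 to -2.72). The sgCtl normoxia values behind these differences rest on 4 to 23 counts.

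NR3C2, the mineralocorticoid receptor gene that also binds cortisol (chromosome 4, 148078764 to 148444698, minus strand), was weakly counted, with 2 to 40 counts a library. In sgXIST7 hypoxia it held 38, 40 and 21 counts, 1.81 CPM in each library. The sgCtl hypoxia libraries held 6, 11 and 3 counts (0.396 ± 0.141 CPM), all lower, and the log2 fold change was 2.12 (SE 0.41), or 1.95 without the libraries numbered 3. In normoxia the sgXIST7 libraries (19, 16 and 8 counts) also lay above those of sgCtl (2, 2 and 4 counts), with a log2 fold change of 1.91 (SE 0.51) that was called only without sgXIST7 normoxia replicate 3 (2.24). In hypoxia the log2 fold change was 1.41 (SE 0.37) in sgXIST7 and 1.73 (SE 0.45) in sgXIST9, both called, and 1.20 (SE 0.56) in sgCtl, which was not called. The calls in sgXIST7 and sgXIST9 held without the hypoxia libraries numbered 3 (1.42 and 1.79), but the first was lost without sgXIST7 normoxia replicate 3 or hypoxia replicates 1 or 2 (1.08 to 1.41) and the second without sgXIST9 normoxia replicates 2 or 3 or hypoxia replicate 2 (1.42 to 1.63) and in the fit of only the groups compared (1.69). For sgXIST9 hypoxia against sgCtl the value was 1.03 (95% interval 0.12 to 1.94).

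ESR1, estrogen receptor alpha (chromosome 6, 151690496 to 152129613, plus strand), had no count in any of the 6 sgCtl libraries. It held 53, 68 and 70 counts in sgXIST9 normoxia (3.36 ± 0.889 CPM) and 5, 9 and 6 in sgXIST7 normoxia (0.326 ± 0.152 CPM). Taking 3 counts per library as the limit in sgCtl, the mean of sgXIST9 normoxia was at least 16.6-fold higher and that of sgXIST7 normoxia at least 1.61-fold higher than sgCtl. The difference was called in sgXIST9, and in sgXIST7 it was called only with DESeq2 and with no filter beyond 1 count. In hypoxia the counts were 14, 3 and 10 in sgXIST9 (mean at least 2.33-fold higher than sgCtl) and 2, 3 and 0 in sgXIST7, at or under that limit. The call in sgXIST9 hypoxia was lost without sgCtl hypoxia replicate 1, sgCtl hypoxia replicate 2 or sgXIST9 hypoxia replicate 1. Within sgXIST9, hypoxia libraries were all below normoxia libraries, with a log2 fold change of -2.85 (SE 0.50), or -3.08 without the libraries numbered 3.

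ESR2, estrogen receptor beta (chromosome 14, 64226707 to 64338613, minus strand), was counted at a low level in all 18 libraries, from 1.54 to 3.72 CPM. It was not called in the 11 comparisons made. Its largest difference between groups of one oxygen level was 0.59 on the log2 scale, for sgXIST7 against sgCtl in hypoxia (95% interval 0.09 to 1.09). The hypoxia response in sgXIST7 exceeded that in sgCtl by 1.01 (SE 0.33), which was not called. PGR, the progesterone receptor gene (chromosome 11, 101029624 to 101129813, minus strand), gave 1 count in all 18 libraries together, in sgCtl hypoxia replicate 2. It was not tested, and expression up to 0.266 CPM would not have been detectable in the library with the highest limit.

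TSC22D3, the X-linked GILZ gene (chromosome X, 107713222 to 107775988, minus strand), was counted at a higher level in hypoxia with every guide. In sgCtl it had 42, 35 and 58 counts in normoxia (2.95 ± 0.332 CPM) and 1303, 2066 and 1045 in hypoxia (92.2 ± 10.5 CPM). In sgXIST7 it had 108, 135 and 153 counts in normoxia (6.28 ± 1.45 CPM) and 1350, 1845 and 1485 in hypoxia (92.1 ± 32.7 CPM). In sgXIST9 it had 103, 84 and 75 counts in normoxia (4.48 ± 0.110 CPM) and 871, 718 and 876 in hypoxia (42.5 ± 11.6 CPM). Hypoxia and normoxia libraries were apart in all 3 lines. The log2 fold change was 4.95 (SE 0.28) in sgCtl, 3.88 (SE 0.25) in sgXIST7 and 3.24 (SE 0.25) in sgXIST9. Replicate 3 was the highest hypoxia library in both sgXIST clones, at 128 and 55.3 CPM, and without the libraries numbered 3 the values were 4.95, 3.58 and 3.01. The response differed from that of sgCtl by -1.08 (SE 0.35) in sgXIST7 and -1.71 (SE 0.36) in sgXIST9, neither called, and by -1.37 and -1.94, both called, without those libraries. The difference in sgXIST9 was also called with DESeq2 (-1.77), in the fit of only the groups compared (-1.72), with a replicate block (-1.76), and without replicate 3 of sgCtl hypoxia (-1.71) or of sgXIST9 hypoxia (-1.94).

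Against sgCtl, the sgXIST7 normoxia libraries were all higher for TSC22D3, with a log2 fold change of 1.07 (SE 0.28) that was called but lost the call with median-of-ratios scaling (1.08) and without any 1 of the sgCtl normoxia libraries or of sgXIST7 normoxia replicates 2 and 3 (0.93 to 1.18). The sgXIST9 normoxia libraries were all higher too, at 0.59 (SE 0.28), which was not called. In hypoxia sgXIST7 overlapped sgCtl at -0.005 (95% interval -0.47 to 0.46), while all sgXIST9 libraries were lower at -1.12 (SE 0.22). Without the libraries numbered 3 these values were -0.31 and -1.35. The call in sgXIST9 was lost without sgXIST9 hypoxia replicate 2 (-0.97) and in the fit of only the groups compared (-1.11).

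FKBP5 (chromosome 6, 35573585 to 35728583, minus strand) moved the other way from TSC22D3 in hypoxia. In normoxia its libraries held 107 to 130 CPM in sgCtl, 119 to 137 CPM in sgXIST7 and 134 to 141 CPM in sgXIST9. In hypoxia they held 30.8, 35.3 and 41.2 CPM in sgCtl, 35.8, 48.7 and 68.0 in sgXIST7 and 49.3, 40.9 and 82.7 in sgXIST9. Every hypoxia library was below every normoxia library, and replicate 3 was the highest hypoxia library of each guide. The log2 fold change was -1.73 (SE 0.23) in sgCtl, -1.33 (SE 0.23) in sgXIST7 and -1.26 (SE 0.22) in sgXIST9, or -1.83, -1.58 and -1.60 without the hypoxia libraries numbered 3. Against sgCtl no difference was called. The values were 0.10 (95% interval -0.36 to 0.57) and 0.22 (-0.25 to 0.68) for sgXIST7 and sgXIST9 in normoxia, and 0.50 (0.03 to 0.98) and 0.69 (0.21 to 1.16) in hypoxia, or 0.36 and 0.44 without the libraries numbered 3.

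**Figure D2:**
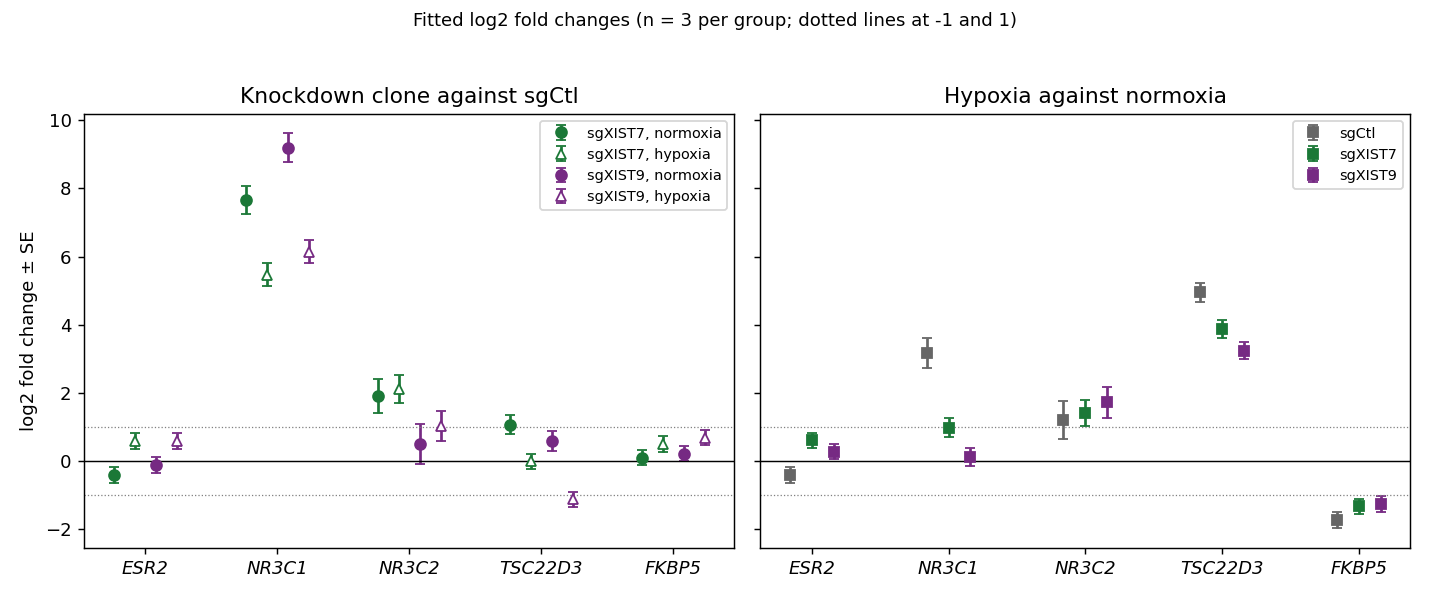
Fitted log2 fold changes (y axis, points with SE as whiskers, n = 3 per group) of 5 members against sgCtl (left) and in hypoxia against normoxia (right). NR3C1 stands highest at left, between 5.47 and 9.19, and at right TSC22D3 lies above 3 and FKBP5 below -1 with every guide. ESR1 and PGR are left out because sgCtl had 0 or at most 1 count.

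Mean levels of the receptor gene and of its targets were set side by side. In normoxia NR3C1 stood at 0.655, 142 and 411 CPM in sgCtl, sgXIST7 and sgXIST9, FKBP5 at 118, 127 and 137 CPM, and TSC22D3 at 2.95, 6.28 and 4.48 CPM. In hypoxia NR3C1 stood at 6.17, 281 and 449 CPM, FKBP5 at 35.8, 50.8 and 57.6 CPM, and TSC22D3 at 92.2, 92.1 and 42.5 CPM. The FKBP5 means had the order of the NR3C1 means at both oxygen levels, though no difference in FKBP5 between guides was called. In hypoxia that order of the 2 sgXIST clones was not stable. The log2 difference in FKBP5 of sgXIST7 against sgXIST9 ran from -0.44 to 0.17 there with 1 library left out. The TSC22D3 means did not have the order of the NR3C1 means. Hormone levels in the medium and receptor protein were not measured.

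**Figure D3:**
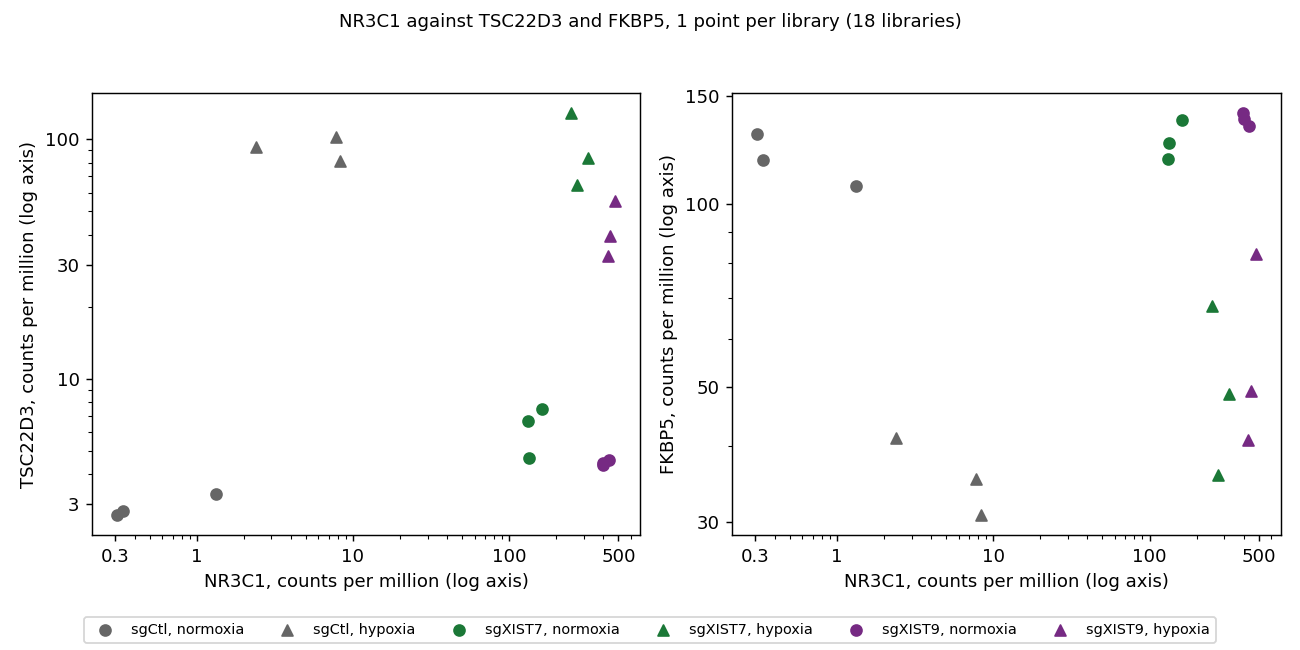
NR3C1 (x axis) against TSC22D3 (left) and FKBP5 (right), in CPM on log axes, with 1 point for each of the 18 libraries. Hypoxia libraries (triangles) hold 32.6 to 128 CPM of TSC22D3 and 30.8 to 82.7 CPM of FKBP5, and normoxia libraries (circles) hold less TSC22D3 and more FKBP5 over the whole range of NR3C1.

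Counting members, a call meant an adjusted p under 0.01 and an absolute log2 fold change over 1, and 6 of the 7 members passed the filter on low counts. In normoxia 2 of 7 were called in sgXIST7 (NR3C1 and TSC22D3, both higher), where 7.76% of all 14938 genes tested were called. In sgXIST9 normoxia 2 were called (NR3C1 and ESR1, both higher, 7.70% of all genes). In hypoxia 2 were called in sgXIST7 (NR3C1 and NR3C2, both higher, 14.0% of all genes) and 3 in sgXIST9 (NR3C1 and ESR1 higher, TSC22D3 lower, 9.53%). These comparisons share the sgCtl libraries. Hypoxia against normoxia called 3 members in sgCtl (NR3C1 and TSC22D3 higher, FKBP5 lower, 19.7% of all genes), 3 in sgXIST7 (TSC22D3 and NR3C2 higher, FKBP5 lower, 27.3%) and 4 in sgXIST9 (TSC22D3 and NR3C2 higher, FKBP5 and ESR1 lower, 23.3%). The response to hypoxia differed from that of sgCtl for none of the members in sgXIST7 (1.52% of all genes), where DESeq2 called 1. In sgXIST9 it differed for 1 (NR3C1, 1.01%). At an unadjusted p under 0.05 in edgeR, 3 of the 6 tested passed in sgXIST7 and 2 in sgXIST9. The share of all genes at that level was not counted, so these numbers cannot be read as particular to the members.

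The sgXIST clones also differed from each other. In normoxia sgXIST7 was lower than sgXIST9 for NR3C1 (log2 fold change -1.53, SE 0.27) and ESR1 (-3.37, SE 0.52), 2 members called beside 3.40% of all genes. The call of NR3C1 was lost without sgXIST7 normoxia replicate 3 (-1.47). In hypoxia sgXIST7 was higher for TSC22D3 (1.11, SE 0.22), the 1 member called beside 4.46% of all genes, and this call was lost without sgXIST7 hypoxia replicate 3 (0.81) or sgXIST9 hypoxia replicates 1 or 2 (1.07 and 0.96) and in the fit of only the groups compared (1.13). NR3C1 in hypoxia was not called between the clones (-0.67, 95% interval -1.24 to -0.11), nor without the hypoxia libraries numbered 3 (-0.54).

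Around the members, 113 genes of steroid signalling in 5 lists were followed, of which 79 passed the filter on low counts. Of 7 tested receptors related to the members, GPER1, the membrane estrogen receptor, was higher in sgXIST7 normoxia (log2 fold change 1.13, adjusted p = 0.0090) in edgeR's quasi-likelihood test with Benjamini-Hochberg adjustment, which also gave the adjusted p-values that follow. In sgXIST9 normoxia it stood at 1.09 (adjusted p = 0.012), which was not called, and it rose in hypoxia in sgCtl by 1.24 (adjusted p = 0.0019). PAQR5, a membrane progestin receptor, rose in hypoxia in all 3 lines, by 1.92 in sgCtl (adjusted p = 0.0014), 2.60 in sgXIST7 (adjusted p = 5.4e-05) and 1.85 in sgXIST9 (adjusted p = 0.0012). ESRRA, an orphan receptor of energy metabolism, fell in hypoxia in sgXIST7 by 1.07 (adjusted p = 9.2e-05) and in sgXIST9 by 1.05 (adjusted p = 0.00012), calls that were lost without the hypoxia libraries numbered 3 (-0.94 and -0.98), and stood at -0.47 in sgCtl, not called. That of GPER1 in sgXIST7 normoxia was the 1 call among the 7 receptors in the 4 comparisons with sgCtl, in which 7.70% to 14.0% of all genes were called, and 1 was called in sgXIST7 hypoxia without the hypoxia libraries numbered 3. In hypoxia against normoxia 2, 4 and 2 were called in sgCtl, sgXIST7 and sgXIST9 (19.7%, 27.3% and 23.3% of all genes). Without the hypoxia libraries numbered 3 they were 2, 3 and 3.

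Of 20 chaperones and coregulators that hold and read the receptors, all tested, 1 was called in the 7 comparisons with sgCtl or with normoxia, in which 7.70% to 27.3% of all genes were called. This was DNAJB1, an HSP40 cochaperone, lower in sgXIST7 hypoxia than in sgCtl (-1.22, adjusted p = 0.0014), whose libraries ranged widely (262 ± 112 CPM). Without the hypoxia libraries numbered 3, hypoxia against normoxia called 2 higher in sgCtl and 1 lower in sgXIST7. HSP90AA1, the inducible HSP90, lay between -0.30 and 0.28 in those comparisons. Median log2 fold changes of the list ran from -0.17 to 0.03 against -0.02 to 0.09 for all genes. Of 15 tested steroid synthesis and metabolism genes, POR, the electron donor of microsomal P450 enzymes, was higher in normoxia in both clones (1.17, adjusted p = 0.00024, and 1.16, adjusted p = 0.00026). STS, the X-linked steroid sulfatase, was higher in sgXIST9 normoxia (1.19, adjusted p = 0.0040). FDXR, which feeds electrons to mitochondrial P450 enzymes, fell in hypoxia in sgCtl by 1.26 (adjusted p = 6.8e-06) and in sgXIST7 by 1.32 (adjusted p = 2.7e-06). AKR1C3, an enzyme of androgen formation, went from 9, 8 and 16 counts to 1, 2 and 0 in sgCtl in hypoxia and from 10, 5 and 6 to 45, 65 and 28 in sgXIST7 (2.92, adjusted p = 8.0e-07). Reads of AKR1C3 can be shared with its close paralogs, so its values are uncertain. In all, 1 and 3 of the 15 were called in sgXIST7 and sgXIST9 in normoxia (7.76% and 7.70% of all genes) and 1 in each clone in hypoxia (14.0% and 9.53%; 2 in each without the hypoxia libraries numbered 3), all higher. Hypoxia against normoxia called 4 in each line (19.7%, 27.3% and 23.3% of all genes), or 5, 4 and 3 in sgCtl, sgXIST7 and sgXIST9 without those libraries.

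The 22 tested of 29 other glucocorticoid-induced genes were often higher in hypoxia. In sgCtl 11 were called higher and 1 lower, beside 11.3% of all genes called higher, with a median log2 fold change of 1.05 against 0.02 for all genes. In sgXIST7 10 were called, all higher (15.1% of all genes higher, median 0.77 against 0.01), and in sgXIST9 10 were higher and 1 lower (14.7%, median 0.81 against 0.09). The counts in each direction were identical without the hypoxia libraries numbered 3. The 7 genes called higher in all 3 lines were ANGPTL4, BIRC3, CEBPB, DDIT4, DUSP1, ELL2 and PER1, several of which, such as ANGPTL4 and DDIT4, are also known targets of hypoxia-inducible factors. The share of all genes called higher in all 3 lines was not counted, so this number has no background beside it. BIRC3, an inhibitor of apoptosis, rose from 2.80 ± 0.185 to 59.6 ± 22.8 CPM in sgCtl (4.41, adjusted p = 2.2e-08). DDIT4, an inhibitor of mTORC1, rose by 3.19, 2.56 and 3.19 in sgCtl, sgXIST7 and sgXIST9 (adjusted p = 8.4e-08, 3.2e-07 and 5.5e-08). In the same order PER1, a clock gene, rose by 2.08, 2.75 and 1.67 (adjusted p = 0.00012, 4.2e-06 and 0.00060), and DUSP1, a phosphatase of MAP kinases, by 2.88, 2.69 and 2.09 (adjusted p = 3.4e-05, 3.3e-05 and 0.00033). SCNN1A, the alpha subunit of the epithelial sodium channel, fell in sgCtl by 1.58 (adjusted p = 3.9e-05), and ANXA1, a mediator of glucocorticoid action on inflammation, fell in sgXIST9 by 1.47 (adjusted p = 6.1e-07).

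**Figure D4:**
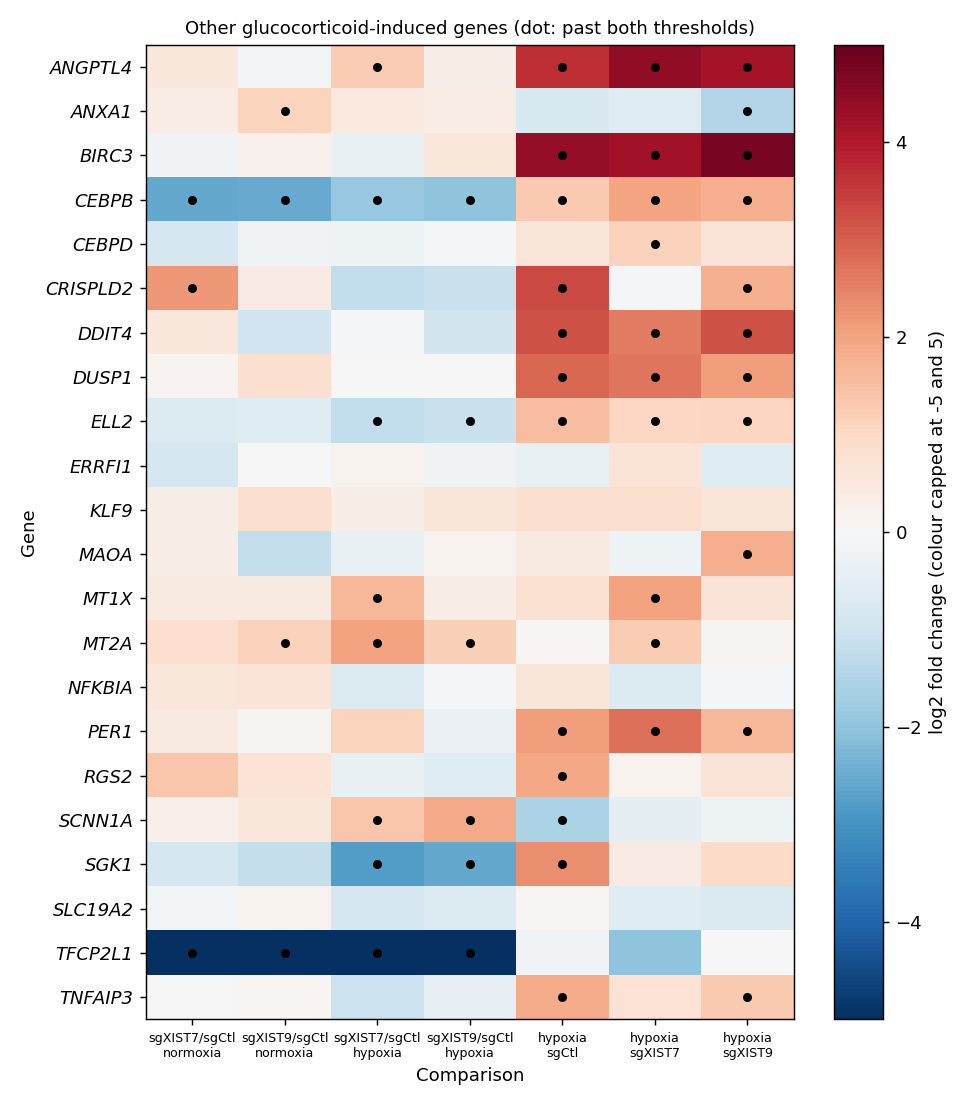
Fitted log2 fold changes (colour, capped at -5 and 5) of the 22 tested glucocorticoid-induced genes (rows) in 4 comparisons of an sgXIST clone with sgCtl and 3 of hypoxia with normoxia (columns). Black dots mark an adjusted p under 0.01 with an absolute log2 fold change over 1; the 3 columns of hypoxia hold 11, 10 and 10 dots on red cells, and the 4 columns of the clones hold dots on both colours.

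Against sgCtl the same list went both ways. In normoxia 1 was higher and 2 lower in sgXIST7 (7.76% of all genes called, median log2 fold change of the list 0.28), and 2 were higher and 2 lower in sgXIST9 (7.70%, 0.14). The 2 higher in sgXIST9 normoxia were MT2A, a metallothionein (1.14, adjusted p = 0.00015) and ANXA1 (1.09, adjusted p = 4.2e-05). In hypoxia 4 were higher and 4 lower in sgXIST7 (14.0%, -0.31), and 2 were higher and 4 lower in sgXIST9 (9.53%, -0.14). Without the hypoxia libraries numbered 3 these counts became 3 higher and 7 lower in sgXIST7 and 2 higher and 5 lower in sgXIST9. The share of all genes called in that setting is not given, so the larger counts cannot be read as particular to this list. CEBPB, a transcription factor of acute responses, was lower at -2.54 (adjusted p = 4.0e-08) and -2.50 (adjusted p = 3.9e-08) in normoxia and at -1.88 (adjusted p = 4.6e-07) and -2.01 (adjusted p = 2.3e-07) in hypoxia, for sgXIST7 and sgXIST9. TFCP2L1, a transcription factor of epithelia, held 89 to 111 counts in sgCtl normoxia and 0 to 3 in the 12 sgXIST libraries. SGK1, a kinase that raises sodium transport, was lower in hypoxia at -2.80 (adjusted p = 0.00019) and -2.57 (adjusted p = 0.00043), in sgCtl libraries that ranged widely (19.8 ± 12.1 CPM). Higher in hypoxia were MT2A at 1.99 (adjusted p = 3.6e-07) and 1.20 (adjusted p = 8.3e-05), and SCNN1A at 1.40 (adjusted p = 0.00020) and 1.89 (adjusted p = 1.4e-05). Metallothionein genes are near-identical copies, so MT2A and MT1X values are uncertain.

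Of 15 tested estrogen- and progesterone-induced genes, the clearest difference was in PDZK1, a scaffold protein of epithelial transporters. It held 2.60 ± 1.40 CPM in sgCtl normoxia, 49.98 ± 4.35 in sgXIST7 and 191 ± 17.8 in sgXIST9, log2 fold changes of 4.28 (adjusted p = 6.3e-09) and 6.21 (adjusted p = 5.8e-11), and was higher in hypoxia at 5.07 (adjusted p = 7.2e-10) and 5.88 (adjusted p = 1.0e-10). FOXA1, a pioneer factor for ESR1, was lower in sgXIST9 normoxia (-1.92, adjusted p = 0.00077) and sgXIST7 hypoxia (-1.52, adjusted p = 0.0030), the latter against widely ranging sgCtl libraries (5.89 ± 3.49 CPM). In hypoxia RET, a receptor tyrosine kinase, rose with every guide by 3.78 to 4.58 (adjusted p = 1.2e-06, 1.1e-06 and 6.1e-07). Its normoxia libraries held at most 20, 8 and 5 counts in sgCtl, sgXIST7 and sgXIST9, so the size of these changes is uncertain. CCND1, cyclin D1, fell in hypoxia in sgXIST7 by 1.25 (adjusted p = 1.0e-07) and in sgXIST9 by 1.21 (adjusted p = 1.9e-07). In all, 2 of the 15 were called in each clone in normoxia (7.76% and 7.70% of all genes), 4 in sgXIST7 hypoxia (14.0%) and 1 in sgXIST9 hypoxia (9.53%), where 4 were called without the hypoxia libraries numbered 3. Hypoxia against normoxia called 4, 9 and 7 in sgCtl, sgXIST7 and sgXIST9 (19.7%, 27.3% and 23.3% of all genes), or 4, 8 and 6 without those libraries.

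Over the 18 libraries, the genes whose log2 CPM ran most alike with NR3C1 were BARX2 (Pearson r = 0.970), KIF13B (0.963) and PHLDA1 (0.961), all low in sgCtl. For TSC22D3 they were HK2 (0.991), KDM2A (0.988) and SLC2A1 (0.987), and for FKBP5 they were SPIRE1 (0.984), EVL (0.976) and SH3BP1 (0.975). HK2 encodes a hexokinase and SLC2A1 a glucose transporter, both textbook genes of the hypoxia response, and HK2 went from 35.8 to 727 CPM in sgCtl. These correlations describe libraries that share 6 group means, and no test was made of them.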

How the data were processed

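The deposited table holds whole-number counts per gene for 18 libraries. The authors prepared stranded, rRNA-depleted total RNA libraries, trimmed read pairs with Trimmomatic, aligned them with HISAT2 to hg38 and counted reads with featureCounts, as their methods and the processing notes state; versions, annotation release and strand setting are not given in the sources used here. The members, gene lists and tests were chosen with earlier results of these data known, so member values and their calls, which come from the fit over all genes, are descriptions and no independent evidence. Of 28279 lines, 2 fragments of 1 broken record were left out.

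Genes were filtered with filterByExpr (minimum count 10, minimum total 15), leaving 14938, and scaled by TMM. One edgeR 4.0.16 quasi-likelihood fit (R 4.3.3) over 6 groups, with no covariate, gave 11 contrasts, Benjamini-Hochberg adjusted over all genes tested. Fold changes used a prior count of 0.125. CPM uses TMM-scaled library sizes. The detection limit was 3 counts per library, and limits cover counting error only. With 3 libraries a group, p-values measure the spread between these samples, which the study calls biological replicates. Scripts were tested on simulated data.

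Named genes were the members, XIST, list genes called in a knockdown or hypoxia comparison (up to 6 per direction with the largest change), and the 3 genes most correlated with each member of at least 50 counts on average. A few list genes outside that rule are named as examples, chosen after their values were seen (HSP90AA1, ERRFI1 and the cell type markers). A pair of list genes is not reported here and is in none of the list counts. Alternatives were DESeq2 1.42.0, median-of-ratios and upper-quartile scaling, no filter beyond 1 count, a mean CPM over 1, fits of only the groups compared, a replicate block, an adjusted p under 0.05, and leaving out each library. Leaving out the hypoxia libraries numbered 3 together was added after seeing the data. Shares of all genes called are those of the main fit throughout. Counts from an alternative, or at an unadjusted p under 0.05, have no share of their own beside them.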

Additional observations from a re-analysis of the deposited data

Results flagged for a closer look

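For 5 differences the response to hypoxia in an sgXIST clone was not that of sgCtl, by the test of the difference itself in edgeR's quasi-likelihood fit. Of the 79 list genes tested, 3 were called in sgXIST7 (3.80%, against 1.52% of all genes). In sgXIST9 1 was called (1.27%, against 1.01%). The other difference was that of the member NR3C1 in sgXIST9. AKR1C3 differed by 6.31 on the log2 scale in sgXIST7 (SE 0.58, adjusted p = 1.9e-05) and by 4.13 in sgXIST9 (SE 0.57, adjusted p = 0.00073). It fell to 0 to 2 counts in the sgCtl hypoxia libraries and stood at 28 to 65 counts in sgXIST7 hypoxia and 71 to 82 in sgXIST9 hypoxia. CRISPLD2, a secreted glucocorticoid-induced protein, differed by -3.39 in sgXIST7 (SE 0.57, adjusted p = 0.0028), with changes of 3.31 in sgCtl, called, and -0.08 in sgXIST7. For CRISPLD2 the sgCtl normoxia libraries held at most 12 counts, and the sgCtl hypoxia libraries ranged widely (7.09 ± 4.10 CPM). ERRFI1, a feedback inhibitor of EGFR signalling that is induced by glucocorticoids, differed by 1.04 in sgXIST7 (SE 0.14, adjusted p = 0.00041), with changes of -0.36 in sgCtl and 0.67 in sgXIST7, neither called. NR3C1 differed by -3.05 in sgXIST9 (SE 0.52), a value given as a description because the gene was chosen with these results known. Its call was lost in several alternative settings, which are named with the other NR3C1 values. In sgCtl, NR3C1 held 4 to 23 counts in normoxia and 27 to 157 in hypoxia, with replicate 3 the highest in normoxia and the lowest in hypoxia.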

How the results depend on the processing

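No member or named list gene that was called changed direction under any alternative. Of 170 values of 23 called member fold changes under alternatives other than leaving out a library, 164 were still called, and 119 of 144 with 1 library left out. For named list genes these were 488 of 503 and 358 of 390. A setting in which a gene failed the filter gave no value and is outside these totals. ESR1 and NR3C2 failed the filter at a mean CPM over 1. ESR1 also failed it in the fit of only the groups compared for sgXIST9 against sgCtl in hypoxia. Counts of members called changed as follows. For sgXIST7 against sgCtl in normoxia the 2 became 1 with median-of-ratios scaling, 4 at an adjusted p under 0.05, and 1 to 2 with 1 library left out. A mean CPM over 1, which tests fewer genes, gave 1 for sgXIST9 in normoxia (from 2), 1 for sgXIST7 in hypoxia (from 2), 2 for hypoxia in sgXIST9 (from 4) and 1 for sgXIST7 against sgXIST9 in normoxia (from 2; 1 to 2 with 1 library left out). Fits of only the groups compared, which hold fewer samples, gave 1 for sgXIST9 in hypoxia (from 3) and 0 for sgXIST7 against sgXIST9 in hypoxia (from 1; 2 at an adjusted p under 0.05, 0 to 1 with 1 library left out). For the difference of the hypoxia response, sgXIST7 went from 0 to 1 with DESeq2 and at an adjusted p under 0.05, 2 without the hypoxia libraries numbered 3 and 0 to 1 with 1 library left out, and sgXIST9 went from 1 to 2 with DESeq2, at an adjusted p under 0.05 and without the hypoxia libraries numbered 3, 0 with no filter beyond 1 count and 0 to 2 with 1 library left out; the cause was not tested.

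Counts of list genes called moved for sgXIST7 in normoxia from 7 to 12 at an adjusted p under 0.05, for sgXIST7 in hypoxia from 14 to 8 in the fit of only the groups compared and 9 to 20 with 1 library left out (9 without sgCtl hypoxia replicate 2), and for sgXIST9 in hypoxia from 8 to 13 without the hypoxia libraries numbered 3. For the difference of the hypoxia response, sgXIST7 went from 3 to 5 (DESeq2), 10 (adjusted p under 0.05), 11 (without the hypoxia libraries numbered 3) and 2 to 13 (1 library left out, 13 without sgCtl hypoxia replicate 3), and sgXIST9 from 1 to 2 (DESeq2, groups compared and adjusted p under 0.05), 7 (without the hypoxia libraries numbered 3) and 1 to 7 (7 without sgCtl hypoxia replicate 3, 2 without sgXIST9 hypoxia replicate 3). For sgXIST7 against sgXIST9 in hypoxia, 3 became 5 with DESeq2, 1 in the fit of the groups compared and 0 to 7 with 1 library left out (0 without sgXIST7 hypoxia replicate 3 or sgXIST9 hypoxia replicate 2, 1 without sgXIST7 hypoxia replicate 2 or sgXIST9 hypoxia replicate 1, 5 without sgXIST7 hypoxia replicate 1, 7 without sgXIST9 hypoxia replicate 3).

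The shared replicate numbers were not taken as pairs: 15 of 45 same-numbered pairs had a correlation of deviations over 0.1 (lowest -0.07), though 16 of 18 libraries correlated best with their own number. With a replicate block, members called in the difference for sgXIST9 went from 1 to 2, and list genes from 3 to 6 for sgXIST7 and from 1 to 2 for sgXIST9; no other count of calls moved by over 1.5 times. NR3C1 in sgCtl normoxia, ESR1 in sgXIST7, NR3C2 and PGR rest on few counts, and depth limits their folds.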

Other observations

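MT1X, a metallothionein, was higher in sgXIST7 hypoxia than in sgCtl (log2 fold change 1.68, SE 0.31, adjusted p = 0.00039 in edgeR's quasi-likelihood test), a call that was lost without the hypoxia libraries numbered 3 (1.29). FOXO1, a transcription factor that glucocorticoids and progestins induce, was lower in sgXIST7 normoxia (-1.60, SE 0.33, adjusted p = 0.0016). HAND2, a progesterone-induced factor of the uterine stroma, fell in hypoxia by 1.32 in sgXIST7 (SE 0.27, adjusted p = 0.00039) and by 1.58 in sgXIST9 (SE 0.27, adjusted p = 9.5e-05). ELL2, a transcription elongation factor, was lower in sgXIST9 hypoxia than in sgCtl (-1.10, SE 0.29, adjusted p = 0.0089), whose libraries ranged widely (26.9 ± 13.0 CPM). CRISPLD2 was higher in sgXIST7 normoxia (2.18, SE 0.43, adjusted p = 0.0013), a call that was lost without sgCtl normoxia replicate 3.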
